A study of Mus musculus with 20 samples.

Results

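The 10 genes described here, in mouse hindlimb muscle, are nuclear regulators of endurance metabolism: the coactivators PGC-1α and PGC-1β (Ppargc1a, Ppargc1b), the estrogen-related receptors (Esrra, Esrrb, Esrrg), the peroxisome proliferator-activated receptors α and δ (Ppara, Ppard), the mitochondrial transcription factor TFAM (Tfam) and the orphan receptors NR4A1 and NR4A3 (Nr4a1, Nr4a3). They were chosen by symbol and make up 10 of the 21844 genes in the deposited table. Each symbol stands on 1 row, and all 10 passed the filter on low counts that left 14359 genes for testing. The filter removed none of them, the lowest value being 18 estimated counts.

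RNA was sequenced from 20 libraries, 5 in each of 4 groups, to ask what loss of the clock factor BMAL1 in muscle and 6 weeks of daily treadmill running do to gene expression. All mice, controls included, have the labelled genotype Cre+:iMSBmal1 fl/fl, that is, a floxed Bmal1 gene and a Cre recombinase. The groups are labelled Vehicle + No Exercise, iMSBmal1KO + No Exercise, Vehicle + Exercise Training and iMSBMal1KO + Exercise Training. They are called vehicle sedentary, labelled-knockout sedentary, vehicle trained and labelled-knockout trained below. The sources used here do not give the promoter that drives Cre, the agent that set it in action, or the age and sex of the mice. The labels disagree on the muscle (gastrocnemius in one field, tibialis anterior in another) and on the time of collection after the last bout (48 hours in the sample labels, 47 hours in the series description).

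The PGC-1 proteins do not bind DNA themselves. They dock onto ERR and PPAR receptors and onto nuclear respiratory factors, and raise the transcription of genes for fatty acid oxidation, the citric acid cycle and the respiratory chain; TFAM then packages mitochondrial DNA and starts its transcription. In muscle, contraction raises Ppargc1a through calcium and cAMP signalling to CREB and MEF2, and the Nr4a genes are induced within hours of exercise in the manner of immediate early genes.

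Before any result, 3 facts about the libraries have to be stated. Arntl, the Bmal1 gene under its earlier symbol, went against the labels: it averaged 13.2 ± 3.28 CPM (SD, n = 5; estimated counts scaled to a common library total) in the labelled-knockout sedentary group and 6.79 ± 0.890 CPM in the vehicle sedentary group. Which exons are floxed is not given in the sources used here, so the counts of the deleted part were not checked, and directions drawn between these groups rest on the labels alone. Labelled-knockout trained libraries 1 and 4 were counted as 1 sample, and so were libraries 3 and 5. Noise at high counts was at most 1.25 times that at low counts in these pairs. In every other pair of libraries it was at least 2.31 times. The ratio does not show that libraries of a pair differed by sampling noise alone. With the pairs merged, n = 3 for labelled-knockout trained muscle, and the fit used 18 samples. Vehicle trained library 2 stood far from the other 4 of its group, and each change of the 10 genes is given with it and without it (17 samples). It is left out of other values where the text says so or speaks of 17 samples. Library totals ran from 10610333 to 19153527 estimated counts. The muscle fibre markers, among them Acta1 and Ckm, summed to 76119 to 98608 CPM in these 17 samples, none of the 10 being at 0. Nothing in the labels says that libraries come from separate animals, so p-values measure the spread between these samples only. Because the samples are bulk tissue, fewer cells of a type and less RNA per cell cannot be told apart.

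Per kilobase of exon, Nr4a1 was the most abundant of the 10 in the vehicle sedentary group, at 56.7 ± 11.9 CPM per kb (SD, n = 5), followed by Esrra at 25.6 ± 1.57 CPM per kb. Neither overlapped the gene next in order. Ppargc1a at 11.2 ± 1.52 CPM per kb and Tfam at 8.72 ± 0.787 CPM per kb overlapped each other and stood above Esrrg at 5.50 ± 0.953 CPM per kb. From Esrrg downward each neighbour overlapped the next: Ppard had 3.70, Ppara 3.01, Ppargc1b 1.69, Nr4a3 1.52 and Esrrb 1.49 CPM per kb on average. In the labelled-knockout sedentary group the order was the same down to Esrra, but Tfam at 9.69 CPM per kb stood above Ppargc1a at 7.97 CPM per kb, with overlapping ranges. In the labelled-knockout trained group Tfam at 9.63 and Ppargc1a at 7.43 CPM per kb did not overlap. Nr4a3 was the lowest of the 10 in both trained groups, at 0.555 ± 0.181 CPM per kb in the 4 vehicle trained samples and 0.357 ± 0.0562 CPM per kb in the labelled-knockout trained samples. Lengths are exon unions of GENCODE M21. Only Esrra shares exon sequence with other annotated genes there (3.74% of its length, with Trmt112 on the opposite strand and Mir6990), and the counting is not stated to use strand.

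**Figure D1:**
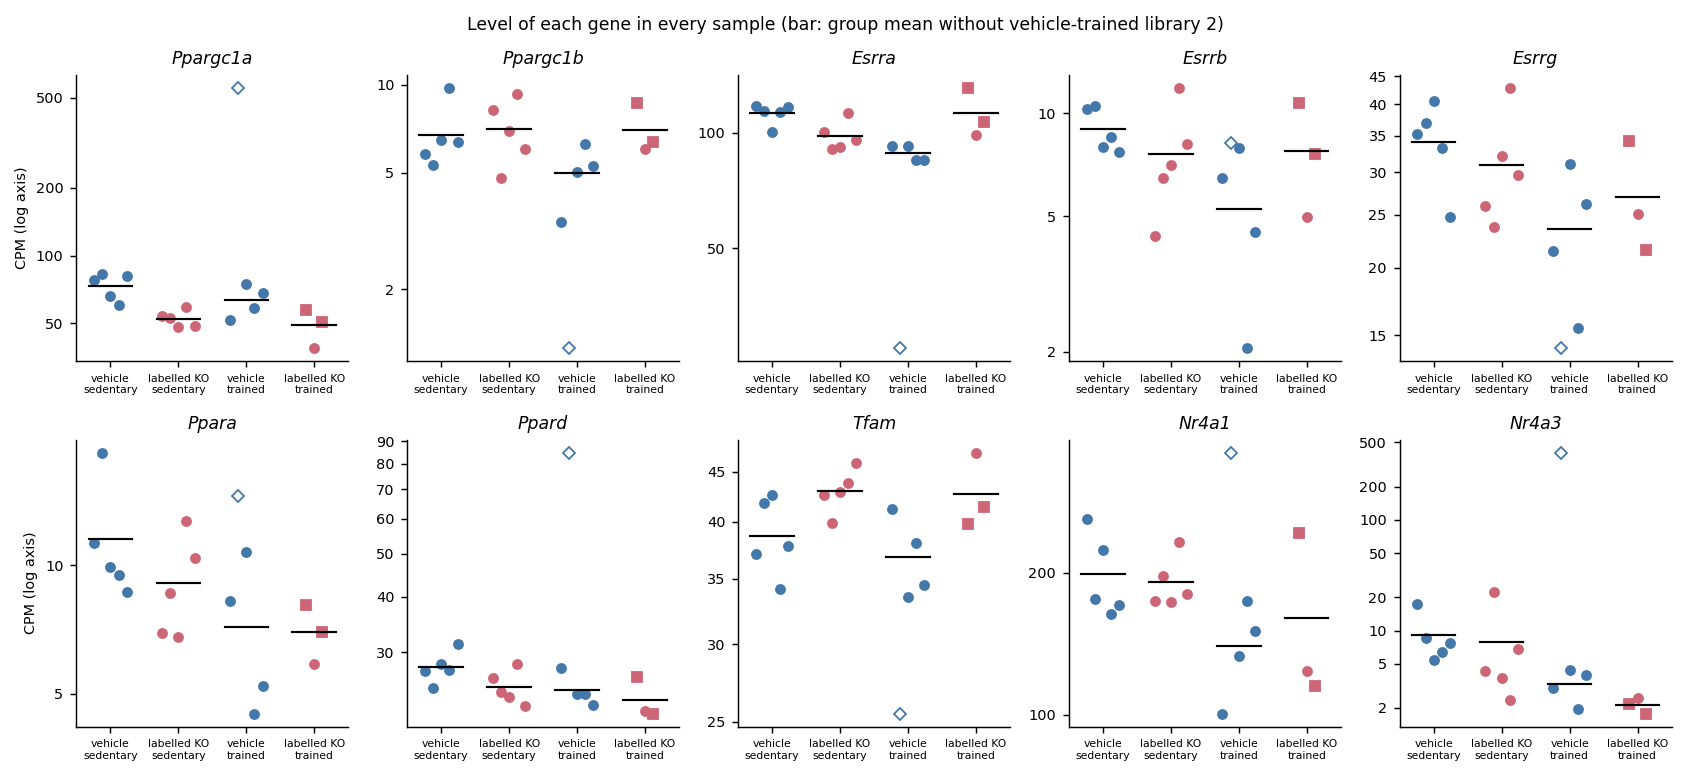
Level of each of the 10 genes in CPM (log axis) in every sample by group; squares are the 2 labelled-knockout trained samples made of 2 libraries each, the open diamond is vehicle trained library 2, and bars are group means without it. Ppargc1a lay at 48.2 to 59.3 CPM in the labelled-knockout sedentary group, below all 5 vehicle sedentary samples. The open diamond lies far from its group for Ppargc1a, Ppargc1b, Esrra, Ppard, Nr4a1 and Nr4a3.

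Ppargc1a, the exercise-induced coactivator, was lower in the sedentary samples labelled knockout. In the vehicle sedentary libraries it lay at 78.0, 83.1, 65.9, 60.1 and 80.8 CPM, and in the labelled-knockout sedentary libraries at 53.9, 52.6, 48.2, 59.3 and 48.8 CPM. The lowest vehicle sample was just above the highest labelled-knockout sample, so the groups did not overlap. Over the tested genes, 9.4% did not overlap in this comparison. With all 18 samples in the fit the log2 change was -0.55 ± 0.523 (SE) and did not pass the test (edgeR's quasi-likelihood test, adjusted p = 0.927). Vehicle trained library 2 belongs to none of the sedentary samples but enters the shared estimate of spread. In the fit of 17 samples that leaves it out, the change was -0.54 ± 0.133 and Ppargc1a fell (edgeR adjusted p = 0.0148). With only the 2 sedentary groups in the fit it fell by 0.55 on the log2 scale (edgeR adjusted p = 0.00485). When vehicle trained library 2 and each other sample in turn were left out together, the call stood in 17 of 17 fits. Log2 changes ran from -0.62 to -0.49 and edgeR adjusted p-values from 0.00502 to 0.0482. Fits that left out a further trained sample kept both sedentary groups whole, so they bear little on the call. The call was narrowest without vehicle sedentary library 5 (edgeR adjusted p = 0.0482) or 2 (0.0451).

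In trained muscle the values of Ppargc1a were 51.9, 75.1, 58.8 and 68.3 CPM in vehicle trained libraries 1, 3, 4 and 5, and 57.2, 38.8 and 51.0 CPM in the 3 labelled-knockout trained samples. Vehicle trained library 2 had 556 CPM. The ranges overlapped, and the difference was -0.32 ± 0.161 on the log2 scale without that library (edgeR adjusted p = 0.252) and -1.74 ± 0.644 with it (edgeR adjusted p = 0.166). Ppargc1b, the coactivator's closest relative, was expressed at a low level. It spanned 5.32 to 9.78 CPM in the vehicle sedentary, 4.78 to 9.30 CPM in the labelled-knockout sedentary, 3.38 to 6.26 CPM in the 4 vehicle trained and 6.04 to 8.63 CPM in the labelled-knockout trained samples. The trained groups overlapped slightly, and the difference of 0.55 ± 0.230 on the log2 scale without vehicle trained library 2 did not pass the test (edgeR adjusted p = 0.161), nor did 0.76 ± 0.325 with it (0.232).

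Of 8 adipocyte markers, among them Adipoq and Plin1, 1 passed the test in sedentary muscle. This was Car3, a carbonic anhydrase that muscle fibres also make, at 987 to 1472 CPM in the vehicle and 258 to 432 CPM in the labelled-knockout samples. The other 7 summed to 225 to 470 CPM against 309 to 388 CPM, overlapping, with no marker at 0 in all samples of a group. The median over the 8 was -0.15 on the log2 scale with all samples or without vehicle trained library 2. The slow fibre markers, 7 genes including Myh7, overlapped (923 to 1654 CPM against 626 to 1439 CPM). Their part in the difference of Ppargc1a was not tested.

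Among the ERR receptors, which bind DNA without a known natural hormone and carry the PGC-1 signal to mitochondrial genes, Esrra was the most abundant. It lay at 118, 114, 101, 113 and 117 CPM in the vehicle sedentary libraries and at 101, 90.6, 91.7, 113 and 95.8 CPM in the labelled-knockout sedentary libraries, and the ranges overlapped. It lay at 92.3, 92.4, 85.1 and 84.9 CPM in vehicle trained libraries 1, 3, 4 and 5, at 27.3 CPM in library 2, and at 131, 98.9 and 107 CPM in the labelled-knockout trained samples. Every labelled-knockout trained sample was above every vehicle trained sample. Over the tested genes, 14.5% did not overlap in this comparison without vehicle trained library 2.

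In the fit of 17 samples, Esrra rose in the labelled-knockout trained group by 0.40 ± 0.106 on the log2 scale (edgeR adjusted p = 0.0246). With vehicle trained library 2 the difference was 0.60 ± 0.243 and did not pass the test (edgeR adjusted p = 0.207). The call also depended on other samples. It stood in 13 of 17 fits in which 1 further sample was left out. Most of these fits left out a sedentary sample, which is in neither compared group and enters only the scaling and shared spread. Of the trained samples, the call was lost without vehicle trained library 4 (edgeR adjusted p = 0.0889) or 5 (0.0658). It was also lost without labelled-knockout trained libraries 1 and 4 (edgeR adjusted p = 0.0752) or 3 and 5 (0.0962). It stood without vehicle trained library 1 (edgeR adjusted p = 0.0278) or 3 (0.0210), or labelled-knockout trained library 2 (0.0255). With only the 2 trained groups in the fit, vehicle trained library 2 left out, the difference was 0.39 ± 0.121 (edgeR adjusted p = 0.133).

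The response of Esrra to training had opposite signs under the 2 labels. Without vehicle trained library 2 it was -0.31 ± 0.0945 on the log2 scale in vehicle muscle (edgeR adjusted p = 0.343; no overlap, against 4.91% of tested genes) and 0.34 ± 0.101 in labelled-knockout muscle (edgeR adjusted p = 0.0939; overlapping). With that library the values were -0.52 ± 0.214 (edgeR adjusted p = 0.285) and 0.33 ± 0.244 (0.786). None of these passed the test. The difference between these responses, the interaction, was 0.65 ± 0.139 with an unadjusted p = 0.000188, and did not pass over all genes (edgeR adjusted p = 0.212). With library 2 it was 0.85 ± 0.324 (edgeR adjusted p = 0.646).

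Esrrg and Esrrb, which are tied to oxidative muscle and are less abundant here, passed the test in no comparison. Esrrg spanned 24.7 to 40.6 CPM in the vehicle sedentary, 23.8 to 42.9 CPM in the labelled-knockout sedentary, 15.5 to 31.1 CPM in the 4 vehicle trained and 21.6 to 34.2 CPM in the labelled-knockout trained samples. Esrrb spanned 7.70 to 10.5, 4.38 to 11.9, 2.05 to 7.94 and 4.97 to 10.7 CPM in the same order. The training difference in vehicle muscle was -0.73 ± 0.325 on the log2 scale for Esrrb without vehicle trained library 2 (edgeR adjusted p = 0.368) and -0.56 ± 0.327 with it (0.403). For Esrrg it was -0.48 ± 0.205 without that library (edgeR adjusted p = 0.363) and -0.59 ± 0.216 with it (0.274).

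The PPAR receptors are activated by fatty acids and drive genes of fat uptake and burning, Ppard being the form best known in muscle endurance. Ppard lay between 24.9 and 31.3 CPM in the vehicle sedentary, 22.7 and 28.2 CPM in the labelled-knockout sedentary, 22.7 and 27.6 CPM in the 4 vehicle trained and 21.8 and 26.3 CPM in the labelled-knockout trained samples. All of these ranges overlapped, and the label difference in trained muscle was -0.01 ± 0.107 on the log2 scale without vehicle trained library 2 (edgeR adjusted p = 0.962) and -0.64 ± 0.351 with it (0.365).

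Ppara was less abundant. Its ranges were 8.68 to 18.4 CPM, 6.81 to 12.7 CPM, 4.5 to 10.8 CPM and 5.89 to 8.09 CPM in the same order of groups. Vehicle sedentary library 2 alone set the upper end of the first range, the other 4 lying at 11.3 CPM or below. The training difference in vehicle muscle, -0.63 ± 0.274 on the log2 scale without vehicle trained library 2, did not pass the test (edgeR adjusted p = 0.365), nor did -0.34 ± 0.304 with it (0.563).

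Tfam passed the test in no comparison. It lay between 33.5 and 47.0 CPM in all 17 samples, and at 25.5 CPM in vehicle trained library 2. The label difference in trained muscle was 0.29 ± 0.109 on the log2 scale without that library (edgeR adjusted p = 0.113) and 0.36 ± 0.127 with it (edgeR adjusted p = 0.149). The trained groups overlapped, at 33.5 to 41.2 CPM in the 4 vehicle trained and 39.8 to 47.0 CPM in the labelled-knockout trained samples.

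Nr4a1, a receptor tied to glucose use in muscle, lay at 261, 176, 224, 164 and 171 CPM in the vehicle sedentary libraries and at 174, 197, 173, 233 and 181 CPM in the labelled-knockout sedentary libraries. Among the labelled-knockout trained samples it was at 243 CPM in libraries 1 and 4 and at 124 and 115 CPM in the other samples. Only the first of these stood above the 101 to 174 CPM of vehicle trained libraries 1, 3, 4 and 5. The difference between the trained groups without vehicle trained library 2 was 0.25 ± 0.215 on the log2 scale (edgeR adjusted p = 0.551), and -0.19 ± 0.331 with it (0.808).

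Nr4a3, its close relative, varied widely within groups. The vehicle sedentary libraries had 17.2, 8.58, 5.38, 6.44 and 7.76 CPM, and the labelled-knockout sedentary libraries 4.32, 22.3, 3.76, 2.35 and 6.77 CPM. Vehicle trained libraries 1, 3, 4 and 5 had 3.02, 4.37, 1.94 and 3.97 CPM, library 2 had 403 CPM, and the labelled-knockout trained samples had 2.19, 2.45 and 1.78 CPM. Apart from vehicle trained library 2, every vehicle trained sample was below every vehicle sedentary sample, where 4.91% of tested genes did not overlap. The training difference without that library was -1.40 ± 0.528 on the log2 scale in vehicle muscle (edgeR adjusted p = 0.358) and -1.76 ± 0.607 in labelled-knockout muscle (edgeR adjusted p = 0.135), and neither passed the test. With library 2 the vehicle value turned to 3.32 ± 1.23 (edgeR adjusted p = 0.274), and the labelled-knockout value was -1.75 ± 1.53 (0.843).

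Counted over the 10 genes, edgeR called 0 in each of the 5 comparisons with all 18 samples, and DESeq2 and limma also called 0. The share of all tested genes called by edgeR was 2.33% for the label in sedentary muscle, 3.29% for the label in trained muscle, and 0% for training in vehicle muscle, for training in labelled-knockout muscle and for the interaction. At an unadjusted edgeR p under 0.05 the members numbered 0, 5, 5, 0 and 2 in that order. Of the 14359 tested genes, 1409, 2467, 2186, 1394 and 1076 had such a p. With that group's library 2 left out, edgeR called 1 member in sedentary muscle (Ppargc1a) against 6.98% of tested genes, 1 in trained muscle (Esrra) against 8.66%, and 0 elsewhere, against 0% for training in vehicle muscle, 0.843% for training in labelled-knockout muscle and 0% for the interaction. The unadjusted counts of members were then 3, 3, 6, 2 and 1, against 2533, 3222, 1869, 2516 and 1643 of the tested genes. A single call among 10 is near the 6.98% and 8.66% called over all tested genes. In the trained labelled-knockout against sedentary labelled-knockout comparison, 11.9% of tested genes and none of the 10 members did not overlap. The 4 pairwise comparisons share groups of samples, so their values are given side by side and are not independent.

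**Figure D2:**
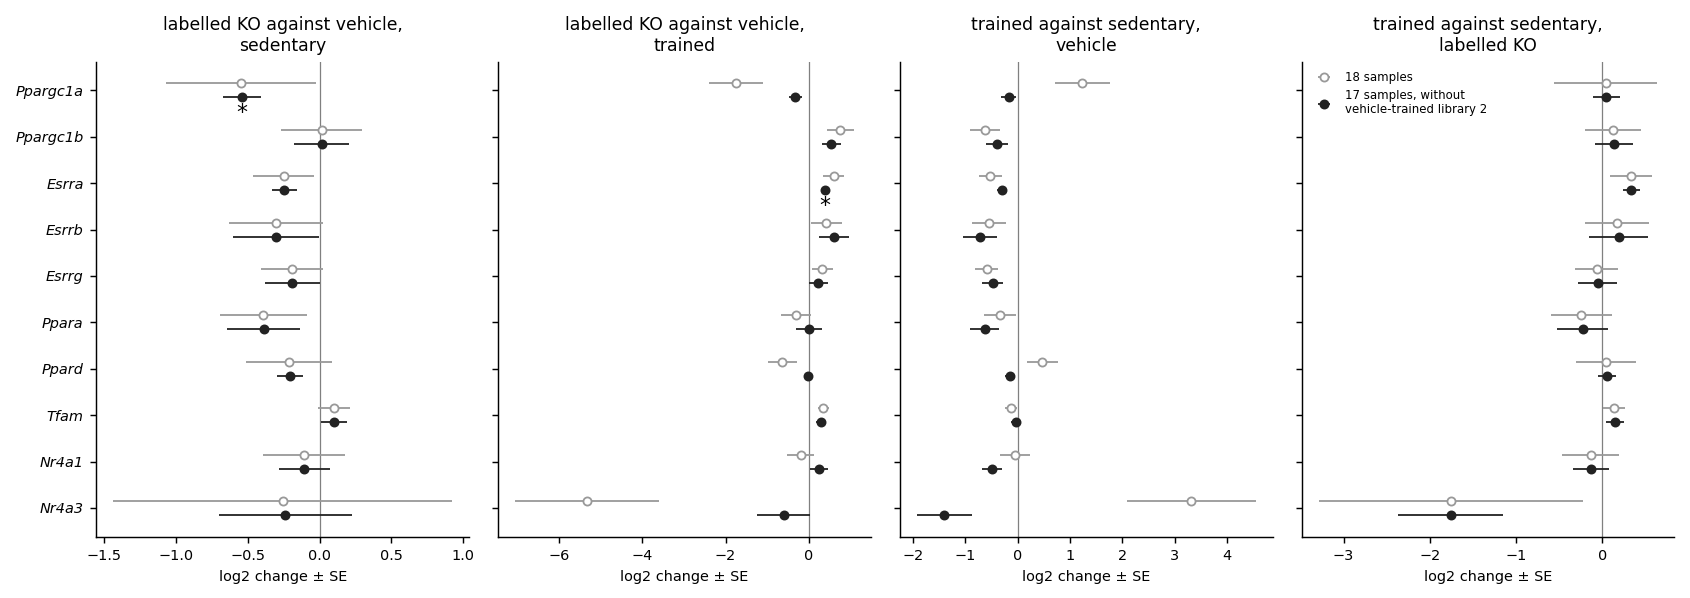
Log2 change ± SE of each of the 10 genes in the 4 pairwise comparisons, with all 18 samples (open points) and without vehicle trained library 2 (filled points); an asterisk marks an edgeR adjusted p under 0.05 without that library. Only Ppargc1a in sedentary and Esrra in trained muscle carry one, and the training change of Nr4a3 in vehicle muscle moves from 3.32 to -1.40 when the library is left out.

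Vehicle trained library 2 set several members apart at once. Relative to the mean of the other 4 vehicle trained libraries, Nr4a3 was 121-fold higher (403 CPM against 1.94 to 4.37 CPM), Ppargc1a 8.75-fold (556 CPM against 51.9 to 75.1 CPM), Ppard 3.43-fold (84.6 CPM against 22.7 to 27.6 CPM) and Nr4a1 2.57-fold (359 CPM against 101 to 174 CPM). Esrra was 3.24-fold lower and Ppargc1b 3.98-fold lower, the latter at 1.26 CPM. Esrrg was 1.66-fold and Tfam 1.44-fold lower. These 8 genes lay outside the range of all 17 other samples. The share of all tested genes outside that range is not given here, so the 8 cannot be set against it. Ppara (2.02-fold) and Esrrb (1.56-fold) were above the other 4 of the group but inside the range of the 17. In all, 7 of the 10 were over 2-fold from the mean of the other 4, against 35% of tested genes. This is 1 library, with no replicate of its state, so no test applies.

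The rest of that library differed as well, 1648 of 14270 genes being over 2-fold above, and 3341 over 2-fold below, what libraries 1, 3, 4 and 5 averaged, with a median log2 ratio of -0.19. Of 18 immediate early genes, 12 were over 2-fold higher and 2 over 2-fold lower (median log2 ratio 2.86), Egr1 standing at 202 CPM against 6.03 to 9.52 CPM and Atf3 at 216 CPM against 3.53 to 9.78 CPM. Of 20 genes that act upstream of Ppargc1a, 3 were over 2-fold higher (Sik1, Hdac4, Crtc2) and 5 over 2-fold lower (Mef2c, Camk2a, Hdac9, Creb1, Ppp3cb), with a median log2 ratio of -0.09. Sik1, a kinase gene that CREB induces and that restrains the CREB coactivators, had 479 CPM against 12.4 to 16.2 CPM, and Mef2c, a transcription factor that acts on Ppargc1a, 106 CPM against 509 to 622 CPM. Among 27 genes listed as PGC-1 and ERR targets of oxidation, 9 were over 2-fold lower and 1 higher (median log2 ratio -0.66). This list also holds Vegfa, Fndc5, Mfn2, Kyat1 and Kyat3, which lie outside the citric acid cycle and respiratory chain. Arntl itself was at 132 CPM against 6.32 to 6.68 CPM. Cell type markers differed too. Of 8 adipocyte markers all were over 2-fold lower, summing to 695 CPM against 1274 to 2581 CPM, and of 10 muscle fibre markers 3 were, summing to 56594.5 CPM against 76163 to 90889 CPM. Of 6 fibroblast markers 4 were over 2-fold lower (median log2 ratio -2.86), although their sum of 1709 CPM lay within the 1644 to 2920 CPM of the other 4 libraries. Of 8 macrophage markers 3 were over 2-fold higher, summing to 394 CPM against 155 to 366 CPM. Their part in the values of the 10 genes was not tested.

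**Figure D3:**
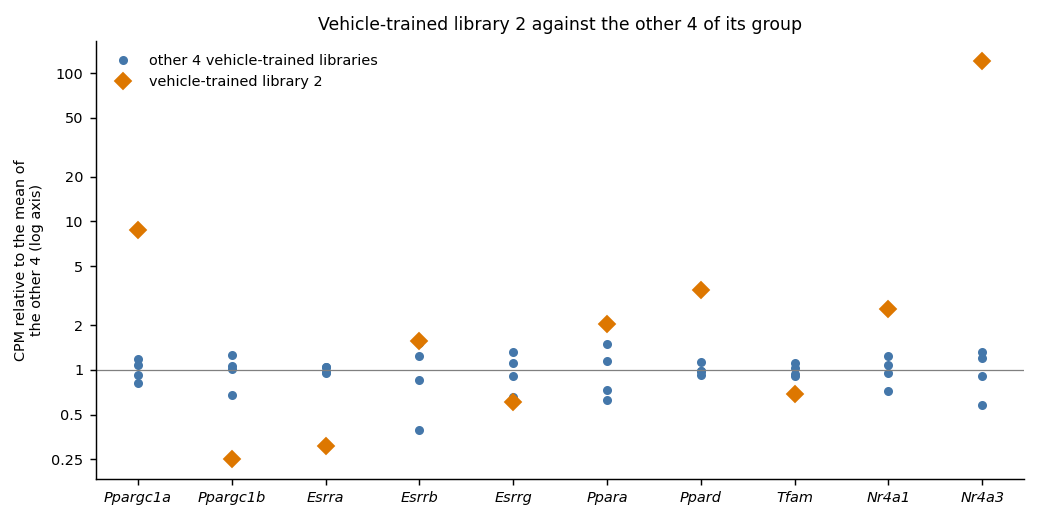
CPM of each gene in the 5 vehicle trained libraries relative to the mean of libraries 1, 3, 4 and 5 (log axis); diamonds are library 2 and circles the other 4. Library 2 was 121-fold higher for Nr4a3 and 8.75-fold higher for Ppargc1a, and 3.98-fold lower for Ppargc1b and 3.24-fold lower for Esrra.

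The sequences before the start sites of the genes that were highest in that library are shown because cAMP and calcium act on Ppargc1a and the Nr4a genes through CREB, whose full site is TGACGTCA and whose half-site is TGACG. Each is the 250 bases upstream of a RefSeq start site (GRCm38.p6), written from 5′ to 3′ on the gene's own strand, with every half-site on either strand in capitals (CGTCA on the reverse strand). Ppargc1a lies at chr5:51567726-51567975 on the minus strand, Nr4a1 at chr15:101266596-101266845 on the plus strand, Nr4a3 at chr4:48045055-48045304 on the plus strand and Ppard at chr17:28232504-28232753 on the plus strand.
Ppargc1a: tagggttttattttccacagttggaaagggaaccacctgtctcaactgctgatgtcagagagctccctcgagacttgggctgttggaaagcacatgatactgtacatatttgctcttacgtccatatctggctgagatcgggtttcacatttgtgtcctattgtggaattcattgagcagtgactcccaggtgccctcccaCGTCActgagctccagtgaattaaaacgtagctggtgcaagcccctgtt
Nr4a1: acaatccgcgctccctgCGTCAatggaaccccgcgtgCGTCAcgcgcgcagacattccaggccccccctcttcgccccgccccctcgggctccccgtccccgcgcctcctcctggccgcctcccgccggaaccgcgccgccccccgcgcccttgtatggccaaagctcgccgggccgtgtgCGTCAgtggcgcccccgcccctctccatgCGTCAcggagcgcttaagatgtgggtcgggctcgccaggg
Nr4a3: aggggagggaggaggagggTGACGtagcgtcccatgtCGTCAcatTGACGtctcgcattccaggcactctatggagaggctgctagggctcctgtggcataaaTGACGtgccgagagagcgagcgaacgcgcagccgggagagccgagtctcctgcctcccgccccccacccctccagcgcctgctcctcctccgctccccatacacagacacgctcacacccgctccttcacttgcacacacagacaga
Ppard: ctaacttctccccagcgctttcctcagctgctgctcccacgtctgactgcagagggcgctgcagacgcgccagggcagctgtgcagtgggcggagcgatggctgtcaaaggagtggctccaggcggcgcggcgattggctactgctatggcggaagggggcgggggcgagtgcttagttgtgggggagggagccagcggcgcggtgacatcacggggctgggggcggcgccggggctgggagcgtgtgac

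Nr4a1 and Nr4a3 each hold 4 matches to the half-site and Ppargc1a holds 1, which lies 49 to 45 bases before the start. Ppard holds none. Over 32851 promoter windows of 250 bases, 17.8% hold at least 1 half-site on either strand. The share that hold 4 was not computed, so the 4 matches cannot be set against it. The bases G and C make up 74.4% of the Nr4a1, 63.6% of the Nr4a3, 48.0% of the Ppargc1a and 69.6% of the Ppard window. The share over all windows is not matched for this. RefSeq windows were found for 9 of the 10 genes, Ppargc1b being the exception, with 13 start sites in all. Of these 13, 5 hold the half-site: those of Nr4a1, Nr4a3, Ppargc1a and Ppara and 1 of the Esrrb sites. The full CRE, which contains the half-site, is in 0 of the 13 and in 1.55% of all windows. The E-box CACGTG, the sequence that BMAL1 binds, is in 0 of the 13 and in 6.02% of all windows. The ERR half-site AAGGTCA is in 0 of the 13 (4.08% of all windows), and so is the NR4A site AAAGGTCA, which contains it (1.34%). These matches describe letters in a short window and no binding was measured. Their part in the values of vehicle trained library 2 was not tested.

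The genes around the members were then counted in lists that were chosen with earlier results of these data known. Nrip1, a corepressor that docks onto nuclear receptors and holds back oxidative genes in muscle, was the member of the 19 co-regulators and partner receptors that passed the test in both label comparisons. It lay at 77.1 to 113 CPM in the vehicle sedentary and 36.7 to 48.0 CPM in the labelled-knockout sedentary samples, and at 76.9 to 95.9 CPM in the 4 vehicle trained and 28.5 to 32.3 CPM in the labelled-knockout trained samples. It fell by 1.28 ± 0.149 on the log2 scale in sedentary (edgeR adjusted p = 5.36e-05) and by 1.59 ± 0.181 in trained muscle (6.34e-05) with all samples. In the 17 samples the list had 0 higher and 2 lower in sedentary muscle, Ncoa3 being the other, and 1 higher (Rxrg) and 1 lower in trained muscle. Over all tested genes 6.98% and 8.66% were called in these comparisons. The list medians were -0.10 and -0.09, against 0.02 and 0.00 over all tested genes.

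Among 20 genes that act upstream of Ppargc1a, edgeR called 1 higher and 0 lower in sedentary muscle with all samples. This was Camk2d, a calcium-activated kinase gene, at 57.5 to 69.2 CPM in the vehicle and 91.0 to 113 CPM in the labelled-knockout samples, which rose by 0.62 ± 0.110 on the log2 scale (edgeR adjusted p = 0.00343). In the 17 samples Hdac9, a repressor of MEF2, also fell, by 0.74 ± 0.12 (edgeR adjusted p = 0.000416). Over all tested genes 2.33% were called in sedentary muscle with all samples and 6.98% in the 17. In trained muscle 0 were called with all samples (4 at an unadjusted p under 0.05), and 1 higher and 2 lower without that library: Camk2d (0.46), Hdac9 (-0.58) and Creb1 (-0.34). All 3 were lost without labelled-knockout trained libraries 3 and 5 as well, and the 2 lower without vehicle trained library 4. None of the 16 mitochondrial biogenesis factors, which include Nrf1, Gabpa and Polrmt, was called by edgeR in the label comparisons, and 0 had an unadjusted p under 0.05. DESeq2 and limma called 0 of them as well.

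**Figure D4:**
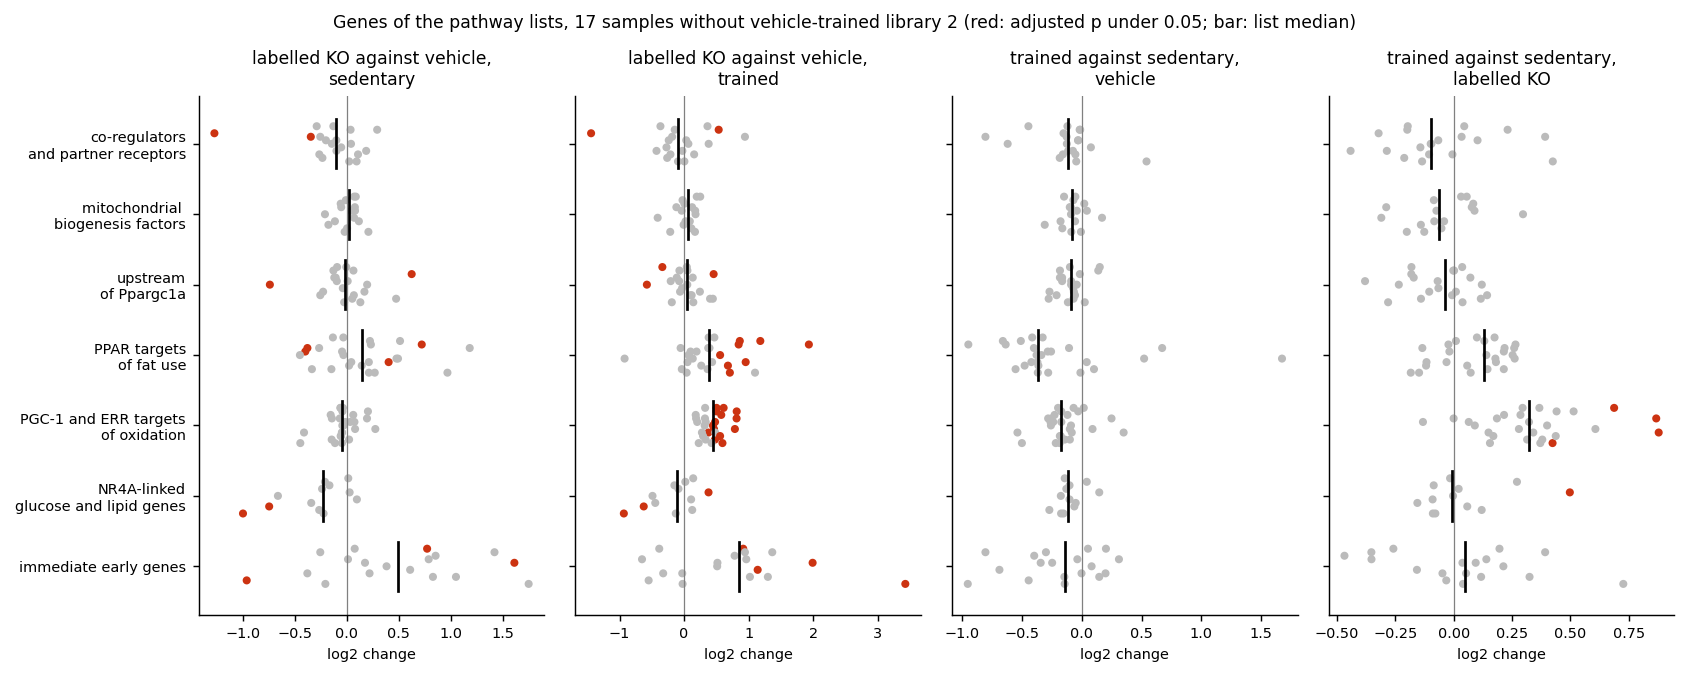
Log2 change of every tested gene of the 7 pathway lists in the 4 pairwise comparisons, without vehicle trained library 2; red points passed the test (edgeR adjusted p under 0.05) and bars are list medians. In the comparison of trained groups all 27 genes of the oxidation list lie above 0, and 14 of them are red.

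Of the 27 listed PGC-1 and ERR targets, edgeR called 8 higher and 0 lower in the labelled-knockout trained group with all samples. There 3.29% of tested genes were called. Without vehicle trained library 2 edgeR called 14 higher and 0 lower, where 8.66% were called. The list median was 0.48 and 0.45 on the log2 scale, against -0.03 and 0.00 over all tested genes. Cyc1, a subunit of respiratory complex III, lay at 241 to 268 CPM in the 4 vehicle trained and 358 to 392 CPM in the labelled-knockout trained samples and rose by 0.59 ± 0.0930 without that library (edgeR adjusted p = 0.000439) and by 0.73 with it (0.0199). Uqcrc1 of the same complex rose by 0.56 ± 0.119 (edgeR adjusted p = 0.00583) and Atp5a1, of ATP synthase, by 0.58 ± 0.124 (edgeR adjusted p = 0.00637). Cox5b, of cytochrome oxidase, rose by 0.81 ± 0.174 (edgeR adjusted p = 0.00598), although its ranges overlapped (154 to 275 CPM against 255 to 357 CPM). With library 2 these 3 also passed, at 0.67, 0.67 and 0.73 (edgeR adjusted p = 0.025, 0.0201 and 0.0324).

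These counts leaned on single libraries. With all other samples in the fit the 8 became 0 without labelled-knockout trained libraries 3 and 5, 1 without labelled-knockout trained library 2, 2 without vehicle trained library 4 and 3 without vehicle trained library 5, 4 without any 1 of vehicle sedentary libraries 1, 2 and 3 or labelled-knockout sedentary library 4, and 5 without vehicle sedentary library 5 or labelled-knockout sedentary library 2. The 14 became 5 without vehicle trained library 4 or labelled-knockout trained libraries 3 and 5, 9 without vehicle trained library 5, and 1 with only the trained groups in the fit. DESeq2 called 13 and limma 6, and edgeR called 0 with only the trained groups in the fit. The list median stayed between 0.45 and 0.57 in these alternatives. In sedentary muscle the same list had 0 called with all samples or without vehicle trained library 2 (0 and 3 at an unadjusted p under 0.05, and 0 by DESeq2 and limma), with a median of -0.05.

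Of 25 PPAR targets of fat use, 6 were called higher and 0 lower in the labelled-knockout trained group with all samples (3.29% of tested genes called) and 8 and 0 without vehicle trained library 2 (8.66%). The medians were 0.45 and 0.38 on the log2 scale. Plin5, which coats lipid droplets at mitochondria, lay at 5.92 to 10.5 CPM in the 4 vehicle trained and 27.1 to 36.2 CPM in the labelled-knockout trained samples, and rose by 1.93 ± 0.222 on the log2 scale without that library (edgeR adjusted p = 1.57e-05). Acadm, a fatty acyl dehydrogenase, rose by 0.95 ± 0.127 (edgeR adjusted p = 8.48e-05), Mlycd by 0.71 ± 0.113 (0.000524) and Hadhb by 0.86 ± 0.155 (0.00145). With all samples the values were 1.76 for Plin5 (edgeR adjusted p = 0.000354), 1.04 for Acadm (0.000806) and 0.90 for Hadhb (0.00325), while Mlycd at 0.55 did not pass (0.0568). Fabp3, the muscle fatty acid carrier, was the fourth by adjusted p there, at 1.13 ± 0.268 (edgeR adjusted p = 0.025). The 6 became 3 without labelled-knockout trained library 2 or without libraries 3 and 5, and 0 with only the trained groups in the fit, and the 8 became 4 without libraries 3 and 5.

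In sedentary muscle 2 of the PPAR targets were higher and 2 lower without vehicle trained library 2, where 6.98% of tested genes were called. Plin5 rose by 0.72 ± 0.181 and Acadm by 0.40 ± 0.106, while the carnitine carriers Slc25a20 and Slc22a5 fell by 0.40 ± 0.0961 and 0.38 ± 0.0940 (edgeR adjusted p between 0.0127 and 0.0244). With all samples only Slc25a20 passed (edgeR adjusted p = 0.0496), where 2.33% of tested genes were called. The 2 higher became 0 without vehicle sedentary library 3 or 4 or labelled-knockout sedentary library 4, and 1 without vehicle sedentary library 1 or 5 or labelled-knockout sedentary library 5, and the lower became 1 without vehicle sedentary library 5. Slow fibre markers stood at 738, 422 and 451 CPM in vehicle trained libraries 3, 4 and 5, at 1356 CPM in library 1, and at 978 to 1320 CPM in the labelled-knockout trained samples. Between the trained groups all 7 lay above 0 without vehicle trained library 2 (median 0.82 on the log2 scale), and 1 was called higher. With all samples all 7 lay above 0 (median 0.87) and 0 were called. Of 8 macrophage markers 0 lay above 0 without that library (median -0.61), and of 6 fibroblast markers 0 (median -0.51), with 0 called. Of the 8 adipocyte markers only Car3 passed in trained muscle, lower in the labelled-knockout group at 403 to 551 CPM against 1014 to 1487 CPM. The other 7 summed to 226 to 1094 CPM in the 4 vehicle trained and 379 to 721 CPM in the labelled-knockout trained samples. The adipocyte median was 0.13 on the log2 scale with all samples and -0.10 without vehicle trained library 2. The part of these markers in the differences of the oxidation and fat use genes was not tested.

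The 12 genes of glucose and lipid use linked to NR4A receptors held 2 that were lower under the label. Without vehicle trained library 2, 6.98% of tested genes were called in sedentary and 8.66% in trained muscle. Hk2, the hexokinase of muscle, lay at 412 to 582 CPM in the vehicle sedentary and 230 to 301 CPM in the labelled-knockout sedentary samples. It fell by 1.00 ± 0.136 on the log2 scale in sedentary muscle without vehicle trained library 2 (edgeR adjusted p = 6.73e-05) and by 0.93 ± 0.166 in trained muscle (0.00137). Pfkm, the muscle phosphofructokinase, fell by 0.75 ± 0.122 and 0.62 ± 0.149 (edgeR adjusted p = 0.000444 and 0.0126), and Pgam2 rose by 0.38 ± 0.116 in trained muscle (0.0497). With all samples 0 of the 12 were called in sedentary muscle (3 at an unadjusted p under 0.05, and 0 by DESeq2 and limma) and only Hk2 in trained muscle, where it fell by 1.67, vehicle trained library 2 standing at 1729 CPM.

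Of 18 immediate early genes, the class to which the Nr4a genes belong, edgeR called 0 in either label comparison with all samples (3 and 6 at an unadjusted p under 0.05). DESeq2 called 0 in sedentary and 1 lower in trained muscle, and limma 0 in both. In the 17 samples 2 were higher (Junb, Egr1) and 1 lower (Ier3) in sedentary muscle, and 4 higher in trained muscle (Btg2, Fos, Junb, Egr1). Over all tested genes 6.98% and 8.66% were called in these comparisons. The trained result rested on labelled-knockout trained libraries 1 and 4. Fos stood at 109 CPM there against 4.74 and 3.47 CPM in the other labelled-knockout trained samples and 2.09 to 4.61 CPM in the 4 vehicle trained samples, and Nr4a1 was highest of its group in the same sample. Leaving that sample out as well gave 1 higher and 2 lower, and the list median moved from 0.85 to 0.05 on the log2 scale. Leaving out vehicle trained library 4 or 5 in its place also left 1 higher. In sedentary muscle Egr1 was at 46.4, 29.6, 36.9, 41.0 and 10.2 CPM in the labelled-knockout and 7.35 to 15.7 CPM in the vehicle samples, and its change of 1.61 ± 0.477 passed narrowly (edgeR adjusted p = 0.048). With 1 further sample left out, the number of immediate early genes called higher there lay between 0 and 5, being 0 without vehicle sedentary library 2 or 4 or labelled-knockout sedentary library 1, 3 or 4. Nr4a1 and Nr4a3 did not pass there.

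For training, edgeR called 0 genes of any list in vehicle muscle, with all samples or without vehicle trained library 2, although 13 and 19 of the 25 PPAR targets had an unadjusted p under 0.05. Their median was -0.36 on the log2 scale without that library, against 0.00 over all tested genes. In the same comparison of vehicle groups, 8 of 8 macrophage markers (median 0.89), 6 of 6 fibroblast markers (0.67) and 7 of 8 adipocyte markers (1.14) lay above 0, and 6 of 7 slow fibre markers (-0.60) lay below it. The sums in the vehicle sedentary and the 4 vehicle trained samples were 55.3 to 218 and 155 to 366 CPM for macrophage, 987 to 2129 and 1644 to 2920 CPM for fibroblast, and 1212 to 1774 and 1274 to 2581 CPM for adipocyte markers. For slow fibre markers they were 923 to 1654 and 422 to 1356 CPM. The part of these markers was not tested. Over all tested genes DESeq2 called 15 in this comparison with all samples and limma 0. An unadjusted edgeR p under 0.05 was found for 2186 of 14359 genes with all samples and 1869 without vehicle trained library 2. In labelled-knockout muscle 4 of the 27 oxidation genes rose in the fit of 17 samples: Cox5b (0.87), Cox4i1 (0.88), Cyc1 (0.42) and Cox6a2 (0.69), with edgeR adjusted p-values from 0.0296 to 0.0347, against 0.843% of tested genes. None of the cell type markers passed the test there. Their medians were 0.65 for slow fibre (6 of 7 above 0), 1.22 for adipocyte (8 of 8), 0.99 for blood (5 of 5) and 0.39 for muscle fibre markers (8 of 10). In the labelled-knockout sedentary and trained samples the sums were 626 to 1439 and 978 to 1320 CPM for slow fibre, 597 to 821 and 892 to 1220 CPM for adipocyte, 348 to 843 and 429 to 2892 CPM for blood, and 76119 to 92621 and 82090 to 98608 CPM for muscle fibre markers. Their part in the rise was not tested. With all samples the number of oxidation genes called was 0 (12 at an unadjusted p under 0.05, against 1394 of 14359 tested genes). DESeq2 called 5 and limma 0 with all samples. Leaving out 1 further sample gave between 0 and 9, with 0 without vehicle sedentary library 3, any 1 of labelled-knockout sedentary libraries 1, 2, 3 and 5, labelled-knockout trained library 2, or libraries 3 and 5, and 1 without vehicle sedentary library 5. The interaction had 0 called in every list, with and without vehicle trained library 2. Of the 27 oxidation genes, 20 and 21 had an unadjusted edgeR p under 0.05, against 1076 and 1643 of the 14359 tested genes. The list median was 0.50 and 0.49, against -0.02 and 0.00 over all tested genes.

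Over the 17 samples without vehicle trained library 2, the genes whose log2(CPM + 1) followed each member most closely were taken from those with a mean of at least 5 CPM. Ppargc1a was closest to Dnajb6 (Pearson r = 0.90), Ptpn3 (0.90) and Mlxipl (0.89), and Ppargc1b to Egfl7 (0.87), Gimap6 and Sh2d3c. Esrra was closest to Hpn (0.85), Pcyt2 (0.84) and Crat (0.83), a carnitine acetyltransferase. Esrrb followed Acadl (0.93), Atp1b1 (0.90) and Idh2 (0.89), which include 2 enzymes of mitochondrial oxidation, and Esrrg followed Nceh1 (0.89), Hsdl2 and Lrrc2. Ppara was closest to Klhl34, B3galt1 and Myh2 (0.89), the myosin of fast oxidative fibres, and Ppard to Rab3ip (0.86), Pisd-ps1 and Cdk16. Tfam was closest to Tceal1 (0.83), Tefm (0.83), a factor of mitochondrial transcription, and Adk (0.81). Nr4a1 followed Foxj2 (0.89), Pigu and Asb14, and Nr4a3 followed Art3 (0.81), Nipa2 and Kcnq5. The samples share groups and libraries, so these values describe likeness only.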

How the data were processed

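RNA-seq of 20 mouse muscle libraries was analysed from 1 deposited table. Its values are estimated counts per gene, as deposited by the authors (72.0% whole numbers, column totals that differ), and were rounded here. RNA was extracted with Trizol and a Qiagen RNeasy kit, per the labels. STAR 2.7.8a, Partek and DESeq2, and the builds mm10 and GRCm39, are named in the submitters' processing notes without their roles. Strandedness and annotation are not given in the sources used here.

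Groups came from the labels. The 10 genes, the gene lists and the noise limit of 1.5 were chosen with earlier results of these data known. So was the leaving out of vehicle trained library 2, which those results had shown far from its group. Genes with at least 1 CPM (each count divided by its library total and rescaled) in at least 5 libraries were kept, 14359 in all. Genes were tested by quasi-likelihood in edgeR 4.0.16 under R 4.3.3, with TMM scaling, 4 group means, two-sided. Adjustment was by Benjamini-Hochberg over all tested genes in each of 5 contrasts, threshold 0.05. A run on simulated data checked only the sign and size of planted changes. Those data held no library set apart like vehicle trained library 2, so the run does not show how the test behaves with it. SEs derive from the F statistic. Alternatives were other scaling, DESeq2 1.42.0, limma 3.58.1 on log2(CPM + 1), no filter, all 20 libraries separate, a replicate block, fewer groups, and samples left out. Text names all 10 genes, and from each list the called genes, at most 4 with the lowest adjusted p. Car3, and genes beyond the 10 in the account of vehicle trained library 2, were chosen after their values were seen. Of 190 library pairs, 2 were counted once.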

Additional observations from a re-analysis of the deposited data

Results flagged for a closer look

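In each group of 5 samples, a gene was singled out when its highest or lowest sample stood apart from the next by an unusually large share of the group's range. Of 30 such groups (10 genes in 3 groups of 5), 10 were singled out. About 1.5 would be if values were normal and the groups independent. The genes were measured in the same libraries, so the 10 cannot be set against that number. The share over all tested genes is not given here. Vehicle trained library 2 accounts for 5 of the 10: Ppargc1a at 556 CPM, Esrra at 27.3 CPM, Ppard at 84.6 CPM, Nr4a1 at 359 CPM and Nr4a3 at 403 CPM. The other 5 each rest on another library. Ppargc1b was at 9.78 CPM in vehicle sedentary library 4, Esrra at 101 CPM in vehicle sedentary library 3 and Ppara at 18.4 CPM in vehicle sedentary library 2. Nr4a3 was at 17.2 CPM in vehicle sedentary library 1 and at 22.3 CPM in labelled-knockout sedentary library 2. Each of these was above the rest of its group except Esrra in vehicle sedentary library 3 and in vehicle trained library 2, which were below.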

How the results depend on the processing

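With all 18 samples the number of the 10 genes called was 0 in each comparison, and it stayed 0 in the training comparisons and the interaction under every alternative run. For the label in sedentary muscle it was 1 with only the compared groups in the fit, and 0 to 1 when samples were left out in turn. For the label in trained muscle taking all 20 libraries as separate gave 2 (Ppargc1a and Nr4a3), the replicate block gave 1 (Ppargc1b, 0.88, edgeR adjusted p = 0.0221), and leaving out samples gave 0 to 1. The replicate numbers do not pair the samples (11 of 30 same-numbered pairs correlated above 0.1, range -0.39 to 0.35, and 4 of 20 libraries were closest to their own number). With the replicate block the interaction of Nr4a1 turned to 0.0281, and limma turned the training change in labelled-knockout muscle of Ppargc1a to -0.11, of Ppard to -0.10 and of Tfam to -0.0107; the cause was not tested. None of these was called. Leaving out samples in turn changed the sign of 17 uncalled values, whose ranges were as follows. Training in vehicle muscle ranged from -0.18 to 1.47 for Ppargc1a, -0.15 to 0.61 for Ppard, -1.40 to 3.69 for Nr4a3 (each turned only by vehicle trained library 2) and -0.48 to 0.11 for Nr4a1. Training in labelled-knockout muscle ranged from -0.0289 to 0.17 for Ppargc1a, -0.0464 to 0.39 for Esrrb, -0.20 to 0.0819 for Esrrg and -0.48 to 0.0311 for Nr4a1. The label in sedentary muscle ranged from -0.11 to 0.16 for Ppargc1b, -0.20 to 0.0146 for Nr4a1 and -1.10 to 0.11 for Nr4a3, and in trained muscle from -0.47 to 0.0106 for Ppara and -0.53 to 0.25 for Nr4a1. The interaction ranged from -1.43 to 0.22 for Ppargc1a, -0.13 to 0.40 for Ppara, -0.56 to 0.20 for Ppard and -0.43 to 0.35 for Nr4a1. Over all genes the alternatives called 251 to 1177 for the label in sedentary and 20 to 1244 in trained muscle, 0 to 15 and 0 to 397 for training in vehicle and labelled-knockout muscle, and 0 to 26 for the interaction. Leaving out vehicle trained library 2 alone was planned with earlier results of these data known. Leaving it out together with 1 other sample, or together with the other groups, was chosen after seeing the data. Ppargc1b, Ppara, Esrrb and Nr4a3 lay under 25 CPM outside that library, where counting error is largest among the 10.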
